A study of Mus musculus with 22 samples.

Results

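miR-28a, miR-151 and miR-708 are 3 hairpins that are grouped as one miRNA family because their products are alike in sequence. Each hairpin is cut into a 5p and a 3p product, and the 6 mature names that result were taken from the 1966 names of the deposited count table. They are mmu-miR-28a-5p, mmu-miR-28a-3p, mmu-miR-151-5p, mmu-miR-151-3p, mmu-miR-708-5p and mmu-miR-708-3p, written without the species prefix where the text is clear. The family was chosen by the counts of mmu-miR-28a-5p, which were lower in knock-out (KO) round spermatids (RS) than in wild type (WT). Its KO values are therefore given as a description with no test, and the question put to the data was whether the fall was shared by the other 5 names and was seen in the knock-in (KI).

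Small RNA was sequenced from RS, which are post-meiotic haploid germ cells, taken from testes of mice 75 to 85 days old on a sedimentation gradient. The genotypes were WT, GRTH KO, which lacks the testicular RNA helicase GRTH/DDX25, and GRTH KI, which carries a human GRTH gene with a missense change that removes the phosphorylated protein. The labels put 5 KO and 5 WT libraries in one experimental batch (the KO batch) and 6 KI and 6 WT libraries in another (the KI batch), and name neither a strain nor a treatment. They do not say whether each library is from a separate animal, so p-values measure the spread between these libraries, which may be technical.

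miRNAs repress mRNAs through base pairing, led by the seed, which is bases 2 to 8 of the mature miRNA. Products with the same seed are expected to share many targets, while the products of opposite arms of a hairpin do not share a seed. miR-28 is known from B cells, where its loss accompanies lymphoma, and miR-151 is known for its place in the gene of focal adhesion kinase and for a role in cell migration.

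The sequences of the miR-28a and miR-708 products show which members can act alike. Of the 6 names, 4 matched a RefSeq mature sequence (GRCm38.p6), each at the position that the count table gives, and they are shown 5′ to 3′ with the seed in capitals.

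miR-28a-5p: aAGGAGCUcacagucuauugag

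miR-708-5p: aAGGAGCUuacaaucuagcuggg

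miR-28a-3p: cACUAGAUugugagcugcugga

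miR-708-3p: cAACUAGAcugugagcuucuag

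miR-28a-5p and miR-708-5p had the same first 8 bases and were identical at 16 of the first 22. Among the 1675 names of the table with a RefSeq sequence, these 2 were the ones with this seed, and they are called the seed pair here. miR-151-5p, miR-151-3p and miR-28c had no matched sequence, so their seeds were not compared and the search described next could not include them. The 3p products had different seeds. With the first base of miR-708-3p left out, 17 of 21 positions were identical, so that their seeds are offset by 1 base. Besides the pair, 5 names held bases 2 to 7 of miR-28a-5p (AGGAGC) within their first 10 bases, and the 7 names together were 0.418% of those with a sequence. The 5 had 7 counts in all over the 22 libraries, and miR-28b, miR-7080-5p and miR-12180-3p had 0. miR-28c, which has its own position in the table, had 0 counts as well. A count of 0 over the 39010121 counts of the series allows a level of up to 0.0769 CPM (counts scaled to 1000000 per library). miR-7659-5p held 6 of the 7 counts and miR-6929-5p held 1.

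All 3 hairpins lay inside introns of protein-coding genes, on the strand of the host. On GRCm38, miR-28a-5p (chromosome 16, 24827868 to 24827889) and miR-28a-3p (24827908 to 24827929) lay within Lpp, which encodes a protein of cell adhesions. miR-151-5p (chromosome 15, 73254855 to 73254875) and miR-151-3p (73254820 to 73254840) lay within Ptk2, the gene of focal adhesion kinase. A gene on the other strand, 1700085D07Rik, overlaps them, and the counting was strand-specific. miR-708-5p (chromosome 7, 96249450 to 96249472) and miR-708-3p (96249496 to 96249517) lay within Tenm4, which encodes a teneurin, a transmembrane protein of cell contact. The host mRNAs were not analysed here.

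The family was scarce in RS. Its 6 names together held 0.0109% of the counts of WT and 0.00988% of KO in the KO batch, and 0.00558% of WT and 0.00548% of KI in the KI batch. Library totals ran from 559957 to 881323 in KO, from 870913 to 1081333 in the WT of that batch, and from 2067322 to 3239357 in the KI batch. A level of 3 counts, used as the smallest that depth can show, corresponded to 2.77 to 5.36 CPM in the KO batch and 0.926 to 1.45 CPM in the KI batch. These floors, and the intervals on shares of counts given here, cover counting error only.

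Markers of germ cells from meiosis on (miR-34c-5p, miR-34b-5p and miR-449a-5p) were present in all 22 libraries, at a summed 204523 to 240442 CPM in KO and 213455 to 243360 in its WT, and at 310203 to 338082 in KI and 316738 to 334912 in its WT. The 5 listed miRNAs of smooth muscle, stroma and endothelium were all detected and summed to 1792 to 4107 CPM in KO against 679 to 1951 in WT, and to 1566 to 3423 in KI against 959 to 1715 in WT. The 6 blood miRNAs were all detected and summed to 5293 to 7289 CPM in KO against 4634 to 5746, and to 3397 to 5322 in KI against 2611 to 3234. Of the 3 skeletal muscle miRNAs, miR-206-3p was at 0, and the sums were 14.3 to 164 CPM in KO, 9.19 to 31.5 in its WT, 35.5 to 485 in KI and 33.9 to 620 in its WT. The ranges of the stromal and blood sums thus lay higher in both mutants, with overlap except for blood in KI, and their part in the values of the family was not tested. In bulk RNA, fewer cells of a type and less RNA per cell cannot be told apart.

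miR-28a-5p was counted 29, 23, 18, 22 and 26 times in the 5 WT libraries of the KO batch and 7, 16, 10, 3 and 5 times in the 5 KO libraries. Scaled by the trimmed mean of M-values (TMM), its levels were 33.6, 26, 19.4, 20.6 and 27 CPM in WT and 9.21, 16.6, 13.6, 5.08 and 8.25 CPM in KO. Every KO library lay below every WT library. Mean mmu-miR-28a-5p was 25.3 ± 5.68 CPM for WT and 10.5 ± 4.55 CPM for KO (both SD, n = 5). The fitted log2 fold change was -1.18 (SE 0.28), or 0.44 of the WT level. Among all 334 names tested for KO, 20.7% were called lower at an adjusted p under 0.1 and 11.4% had all KO libraries below all WT libraries. The value rests on 41 counts over the KO libraries.

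**Figure D1:**
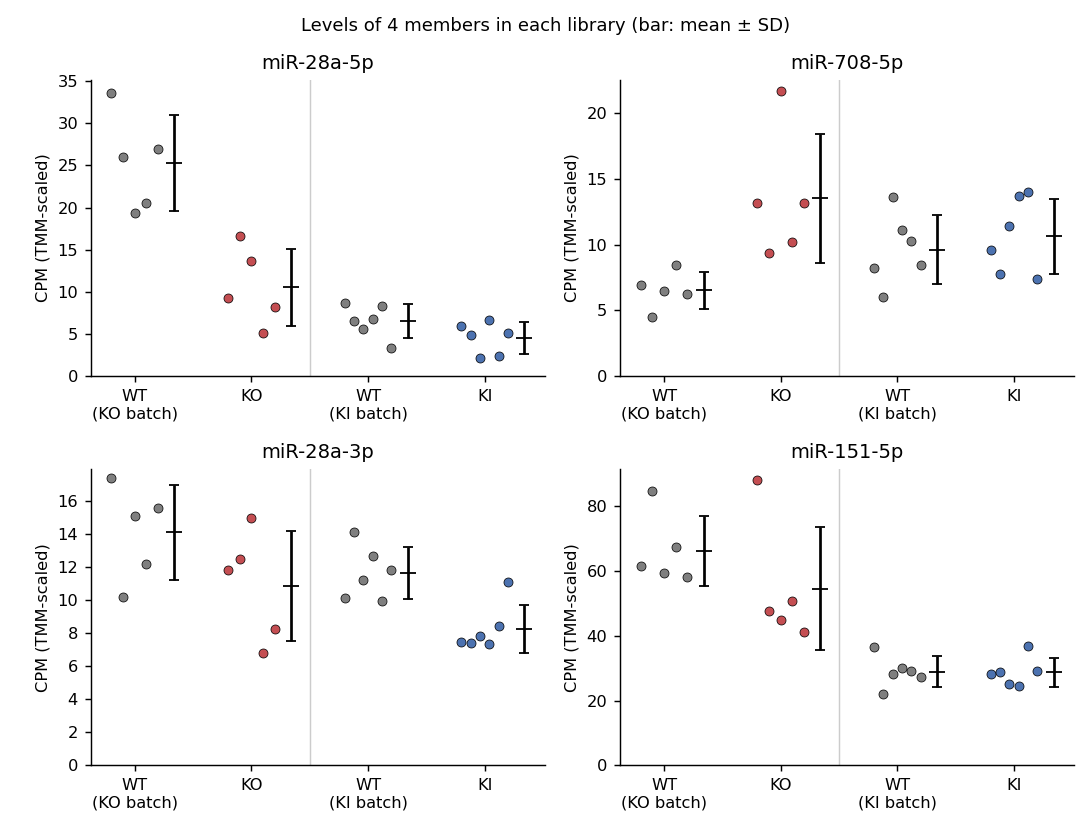
Levels of miR-28a-5p, miR-708-5p, miR-28a-3p and miR-151-5p, in TMM-scaled CPM on the vertical axis, by group. Each point is a library and the bar beside it is the mean ± SD. The KO libraries of miR-28a-5p (5.08 to 16.6 CPM) all lie below the WT of their batch (19.4 to 33.6), and those of miR-708-5p (9.35 to 21.7 CPM) all lie above it (4.51 to 8.43).

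In the KI batch miR-28a-5p was lower to begin with. Over the 6 WT libraries it had a lowest count of 9, a median of 15.5 and a highest of 26, and over the 6 KI libraries 5, 11.5 and 19. Its mean level was 6.54 ± 1.97 CPM for WT and 4.51 ± 1.87 CPM for KI (both SD, n = 6). The groups overlapped, with WT between 3.31 and 8.72 CPM and KI between 2.14 and 6.66, and 2 KI libraries lay below all WT. The log2 fold change was -0.51 (SE 0.30, 95% interval -1.15 to 0.13) and did not pass the test, with an adjusted p of 0.221 in edgeR's quasi-likelihood test. The interval runs from a fall almost as large as the KO value to a small rise, so a fall of miR-28a-5p was neither shown in KI nor shown to be missing there. The KO effect minus the KI effect was -0.70 (SE 0.44), given with no test because the KO effect chose the family.

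miR-708-5p, which has the seed of miR-28a-5p, lay on the other side of WT in KO. Its counts were 6, 4, 6, 9 and 6 in WT and 10, 9, 16, 6 and 8 in the smaller KO libraries. These correspond to 6.96, 4.51, 6.48, 8.43 and 6.23 CPM in WT and 13.2, 9.35, 21.7, 10.2 and 13.2 CPM in KO. All 5 KO libraries lay above all 5 WT libraries, as was also so with scaling by library total. Mean mmu-miR-708-5p was 6.52 ± 1.41 CPM for WT and 13.5 ± 4.89 CPM for KO (both SD, n = 5).

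The counts of miR-708-5p were too low for the filter of the main KO fit, so it had no test there. In edgeR with no filter its log2 fold change was 0.965 (SE 0.38, 95% interval 0.21 to 1.72) with an adjusted p of 0.0949, and in DESeq2 it was 1.04 (SE 0.44) with an adjusted p of 0.0695. With no filter, 6.62% of the 937 names were called higher in KO and 3.52% had all KO libraries above all WT libraries, and in DESeq2 16.4% of 428 names were called higher, against 21.3% of the 334 names of the filtered fit. The call with no filter lay close to the threshold. It was lost in 7 of the 10 fits that left out 1 library, with adjusted p of 0.112 to 0.365 in edgeR without WT replicate 1, 2, 3 or 5 or KO replicate 1, 3 or 5. Without KO replicate 3, which had the highest level, the log2 fold change was 0.735, and in the other 6 of these fits it was 0.832 to 0.972.

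In KI miR-708-5p passed the filter and was not called. Its counts had a lowest value of 12, a median of 25.5 and a highest of 34 in WT and 16, 30.5 and 39 in KI, or means of 9.63 ± 2.62 CPM for WT and 10.7 ± 2.86 CPM for KI (both SD, n = 6). The groups overlapped almost fully, at 6.05 to 13.6 and 7.41 to 14 CPM. The log2 fold change was 0.14 (SE 0.22, 95% interval -0.32 to 0.60, edgeR adjusted p 0.644). In the fit of all 4 groups the KO effect exceeded the KI effect by 0.87 on the log2 scale (SE 0.37, 95% interval 0.11 to 1.63). The adjusted p of this difference in edgeR was 0.255, which does not pass the threshold.

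**Figure D2:**
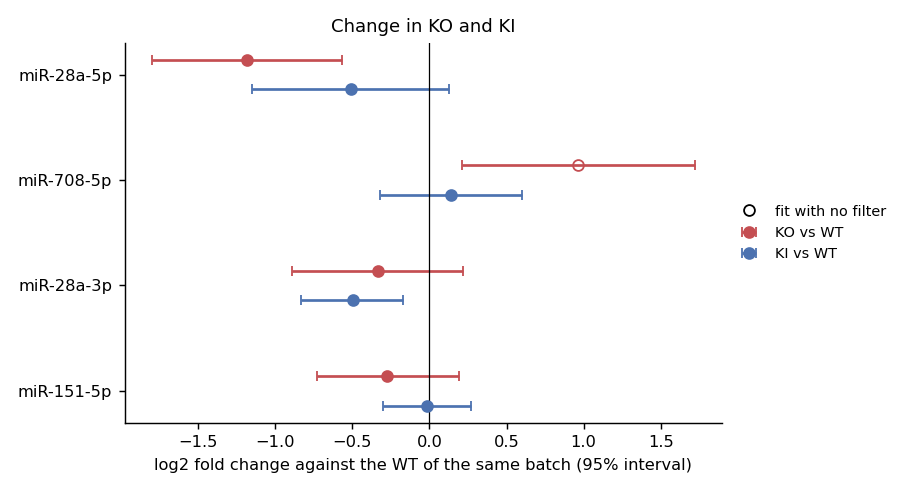
Log2 fold change against the WT of the same batch (horizontal axis, points, with 95% intervals as bars) of 4 members in KO (red) and KI (blue). The open point is from the fit with no filter, and miR-28a-5p in KO is the value that chose the family. In KO, miR-28a-5p is at -1.18 and miR-708-5p at 0.965, while the interval of miR-28a-3p in KI (-0.83 to -0.17) is the only one of the 4 for KI that does not include 0.

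The makeup of the seed pair moved with these levels. miR-28a-5p made up 118 of the 149 counts of the pair in the WT of the KO batch, or 79.2% (Clopper-Pearson 95% interval 71.8 to 85.4%), and 41 of 90 in KO, or 45.6% (35.0 to 56.4%). Single libraries ranged from 71.0 to 85.2% in WT and from 33.3 to 64.0% in KO. In the KI batch the share was 40.0% (33.8 to 46.4%) in WT and 30.1% (24.4 to 36.4%) in KI, and the libraries overlapped, at 28.1 to 52.0% and 14.3 to 40.7%. The summed level of both miRNAs was 31.8 ± 5.55 CPM for WT and 24.1 ± 7.36 CPM for KO (both SD, n = 5), and the groups overlapped (25.9 to 40.6 and 15.3 to 35.3 CPM). For the KI batch it was 16.2 ± 3.19 CPM in the WT libraries and 15.2 ± 2.97 CPM in the KI libraries (both SD, n = 6). The KO shares and sums contain the value that chose the family and carry no test.

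miR-28a-3p, from the other arm of the miR-28a hairpin, was the member that passed the test in KI. Its counts had a lowest value of 22, a median of 29.5 and a highest of 32 in WT and 18, 21.5 and 24 in KI. Mean mmu-miR-28a-3p was 11.6 ± 1.59 CPM for WT and 8.26 ± 1.45 CPM for KI (both SD, n = 6). It fell by 0.50 on the log2 scale (SE 0.155, 95% interval -0.83 to -0.17, edgeR adjusted p 0.0247). Of the 6 KI libraries 5 lay below all WT libraries, and KI replicate 6, at 11.1 CPM, lay within the WT range of 9.94 to 14.1. The call was made in each of the 12 fits that left out 1 library, and was lost with no filter (edgeR adjusted p 0.174), where 11.6% of 1060 names were called. With no filter the log2 fold change was of much the same size, at -0.49 (SE 0.207, 95% interval -0.91 to -0.07).

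It was the only call among the 4 members tested in KI, where 38% of all 387 names were called and 19.9% were called lower. A count of 1 in 4 is close to these shares, and 4 members are too few to show whether the family differs from the other names in KI. The 5p and 3p products of miR-28a had nearly the same fold change in KI, 0.704 and 0.709 of WT, and differed in their spread. When both arms were added into 1 count, which was chosen after seeing the data, the log2 fold change in KI was -0.51 (SE 0.14, edgeR adjusted p 0.0158). In KO the same sum gave -0.84 (SE 0.24), with no test because it contains the value that chose the family.

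In KO, miR-28a-3p was not called. Its counts were 15, 9, 14, 13 and 15 in WT and 9, 12, 11, 4 and 5 in KO, or 17.4, 10.2, 15.1, 12.2 and 15.6 CPM against 11.8, 12.5, 15, 6.78 and 8.25 CPM. The groups overlapped, with 2 KO libraries below all WT. The log2 fold change was -0.33 (SE 0.26, 95% interval -0.89 to 0.22, edgeR adjusted p 0.37), and the KO effect minus the KI effect was 0.15 (SE 0.29, edgeR adjusted p 0.822).

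The balance of the miR-28a arms differed between the batches. In the WT of the KO batch the 5p product held 64.1% of the counts of the hairpin (Clopper-Pearson 95% interval 56.7 to 71.1%) and was the more abundant arm in 5 of 5 libraries. In the WT of the KI batch it held 36.2% (30.4 to 42.2%) and was the less abundant arm in all 6 libraries. The WT libraries did not overlap, at 56.2 to 71.9% and 22 to 46.3%. In KO the share was 50% (38.7 to 61.3%), between 42.9 and 57.1% in single libraries, and in KI it was 36.2% (29.5 to 43.3%), between 21.4 and 47.5%. The share in KI thus equalled that of its WT to the first decimal, with wide intervals. That of KO lay lower than its WT except in KO replicate 2, at 57.1%. The shares of KO and its WT contain the counts that chose the family, so their difference is a description and carries no test. The minimum of 10 counts for both arms in every library, set for a test of arm ratios, was not met by any of the 3 hairpins, so no such test was made.

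**Figure D3:**
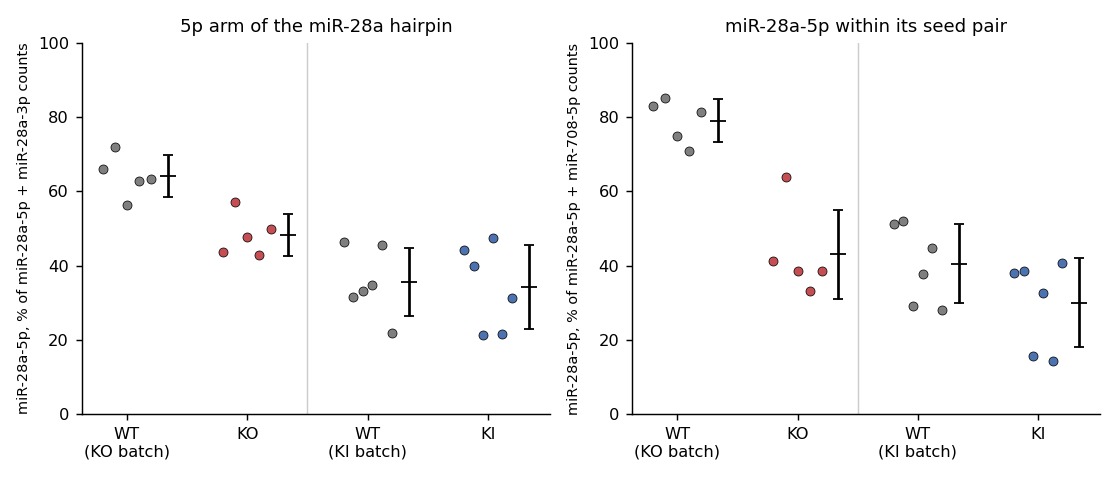
Share of miR-28a-5p, in percent of counts on the vertical axis, within its hairpin (left, with miR-28a-3p) and within its seed pair (right, with miR-708-5p), by group. Points are libraries and bars are the mean ± SD over libraries. Within the hairpin the WT libraries lie at 56.2 to 71.9% in the KO batch and at 22 to 46.3% in the KI batch.

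miR-151-5p was the most abundant member, with 50.5 to 58.6% of the family's counts in each group, and was not called in either mutant. In the KO batch its counts were 53, 75, 55, 72 and 56 in WT and 67, 46, 33, 30 and 25 in KO, or 61.5, 84.6, 59.4, 67.5 and 58.1 CPM against 88.2, 47.8, 44.9, 50.8 and 41.3 CPM. Of the 5 KO libraries 4 lay below all WT libraries and KO replicate 1 lay above them all. The log2 fold change was -0.27 (SE 0.21, 95% interval -0.73 to 0.19, edgeR adjusted p 0.333). Without KO replicate 1 it was -0.52 (SE 0.16, edgeR adjusted p 0.0296), so 1 library decided this call. That fit called 144 of 341 names.

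In KI the level of miR-151-5p was 28.8 ± 4.49 CPM, against 29 ± 4.7 CPM for WT (both SD, n = 6). Its counts had a lowest value of 44, a median of 75 and a highest of 91 in WT and 63, 70 and 91 in KI. The log2 fold change was -0.02 (SE 0.14, 95% interval -0.30 to 0.27, edgeR adjusted p 0.934). The KO effect minus the KI effect was -0.26 (SE 0.25, edgeR adjusted p 0.632).

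The 3p products of miR-151 and miR-708 were near or under the floor of 3 counts per library. miR-151-3p had 0, 2, 1, 1 and 0 counts in the WT of the KO batch and 1, 1, 3, 4 and 5 in KO, a total of 4 against 14. In the KI batch it had 5 counts over the WT libraries, of which 4 were at 0, and 12 over the KI libraries. In edgeR with no filter the log2 fold change in KO was 1.98 (SE 0.78, adjusted p 0.0979), a fitted value that depends on so few counts. The call was lost in 7 of 10 fits that left out 1 library, with edgeR adjusted p of 0.127 to 0.284 without WT replicate 1, 3, 4 or 5 or KO replicate 3, 4 or 5. Over all 10 fits the log2 fold change stayed between 1.605 and 2.518. In KI it was 1.13 (SE 0.77, adjusted p 0.423). mmu-miR-708-3p was counted 15 times in the whole series, never more than 2 times in one library, and no change of it was detectable at this depth.

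In the KO fit, edgeR called 0 of the 2 members tested besides miR-28a-5p (miR-28a-3p and miR-151-5p), and 0 had an unadjusted p under 0.05, where 41.9% of all 334 names were called. DESeq2 called 1 of the 3 members it tested (miR-708-5p), and edgeR with no filter called 2 of 5 (miR-708-5p and miR-151-3p), both higher in KO, where 13.9% of 937 names were called. DESeq2 called 30.1% of its 428 names. Besides miR-28a-5p, 0 members were called lower in KO in these fits, where 7.26% of names were called lower with no filter and 13.8% in DESeq2. The test of the KO effect minus the KI effect called 0 of 3 members in edgeR, with 1 at an unadjusted p under 0.05 (miR-708-5p), and 0 of 5 in DESeq2. Over all 421 names edgeR called 0, or 0%, with 67 at an unadjusted p under 0.05, and DESeq2 called 0 as well.

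Set in order of level, miR-28a-5p was highest in the WT of the KO batch (25.3 CPM), followed by KO (10.5), the WT of the KI batch (6.54) and KI (4.51). WT and KO of the KO batch did not overlap, while KO and the WT of the KI batch overlapped, as did that WT and KI. The WT libraries of the 2 batches did not overlap for miR-28a-5p, at 19.4 to 33.6 CPM in the KO batch and 3.31 to 8.72 in the KI batch. miR-151-5p followed the batches, at 66.2 ± 10.9 and 54.6 ± 19.1 CPM (SD, n = 5) in WT and KO of the KO batch. Its WT libraries of the 2 batches did not overlap either. How many of all names have WT libraries that do not overlap between the batches was not counted. miR-28a-3p was at 14.1 CPM in the WT of the KO batch, 11.6 in the WT of the KI batch, 10.9 in KO and 8.26 in KI, with overlap between all neighbours. miR-708-5p was highest in KO (13.5 CPM), followed by KI (10.7), the WT of the KI batch (9.63) and the WT of the KO batch (6.52), with overlap between all neighbours. CPM were scaled within each batch, and for the mutants batch and genotype cannot be told apart across batches. No member reached a mean of 50 CPM in both batches, the level set for naming miRNAs of like pattern, so none are named.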

How the data were processed

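Per the labels, the header of the table and the study's methods, adapters were trimmed by the authors (cutadapt 3.4), who aligned reads to GRCm38 with Bowtie2 2.4.2 and counted them on miRBase mature miRNAs with featureCounts (Subread 2.0.1), by strand and with replicates kept apart. The deposited values are counts of reads per mature name and library. Several alignments could be kept per read, and the counting command in the header names no option for reads with more than one, nor one for duplicates. Each of the 6 names has 1 locus.

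The family and the marker lists were chosen with earlier results of these data known, and the names described are all 6 members and the names that hold bases 2 to 7 of miR-28a-5p. Each mutant was compared with the WT of its own batch in a fit of all names with edgeR 4.0.16 in R 4.3.3 (TMM, filterByExpr, quasi-likelihood test, genotype as the only term). Calls used a p under 0.1 after Benjamini-Hochberg adjustment, as in the study, whose tool, DESeq2, was an alternative (version 1.42.0). SE of edgeR fits are the size of the log2 fold change divided by the root of the F statistic, and the SE of the DESeq2 fit is the one DESeq2 reports. The filtered fits were also run on simulated counts with the same spread for all names. That run does not cover the fits with no filter or the members that the filter removed. Hosts are from GENCODE vM21 (GRCm38). CPM of markers are by library total. Python 3.11.15, pandas 2.3.3 and scipy 1.17.1 were used.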

Additional observations from a re-analysis of the deposited data

Results flagged for a closer look

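The levels of the 4 members with counts in every library were screened in each of the 4 groups for a library far from the others of its group. Of 16 combinations 2 stood out, where chance gives about 0.8. miR-151-5p was high in KO replicate 1, where log2(CPM + 1) was 6.48 while the rest of KO lay at 5.40 to 5.70, and the gap took up 0.726 of the whole range. miR-28a-3p was high in KI replicate 6, where it was 3.60 while the rest of KI lay at 3.06 to 3.24, and the gap took up 0.679 of the range.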

How the results depend on the processing

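Calls of members in KO depended on the filter. In place of 0, the number called was 1 in DESeq2, 2 with no filter, 2 with no filter and library size only, 1 with no filter and the replicate number as a block, 0 to 1 when 1 library was left out and 0 to 2 when 1 was left out with no filter. The last 3 settings with no filter were chosen after seeing the data. Over all names, 114 of 937 were called in KO with no filter and library size only, and 128 of 937 with no filter and the block. When 1 library was left out, 112 to 153 of 336 to 341 names were called, and with no filter 103 to 139 of 909 to 925. In KI 0 members were called with no filter in place of 1. With no filter, 1060 names were adjusted for in place of 387, and the SE of miR-28a-3p in KI was 0.207 in place of 0.155. The cause of the lost call was not tested. Without KO replicate 1 the KO call was of miR-151-5p, in a fit that called 144 of 341 names. The KO effect minus the KI effect was called for 25 names with the replicate number as a block, none of them a member, and for 0 to 26 names when 1 library was left out, with 26 without KI replicate 2, 1 without WT replicate 1 of the KI batch and 0 in each other fit. With no filter, the block ended the call of miR-151-3p in KO (log2 fold change 2.02, edgeR adjusted p 0.208) and kept that of miR-708-5p (adjusted p 0.0797), and in the filtered fits it changed no call of a member. The labels do not say whether same-numbered libraries were prepared together. Correlations of their deviations ran from -0.21 to 0.31 over 5 pairs for KO and from -0.12 to 0.56 over 6 pairs for KI. The mean correlations were 0.05 and 0.19. In the KO batch 3 of 10 libraries lay closest to their own number, and in the KI batch 6 of 12. Whether the numbers mark a shared preparation was not tested.

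The log2 fold change of miR-151-5p in KI, close to 0, was 0.068 with library size only, and -0.08 to 0.06 when 1 library was left out. miR-28a-5p in KO stayed between -1.43 and -1.04 in those fits. Library size only moved the median log2 fold change of all names in KO from 0.015 to 0.129, and left the direction of miR-28a-5p (-1.07), miR-28a-3p (-0.22) and miR-151-5p (-0.17) in KO as it was. The planned tests of arm ratios, with their alternatives, were not run because of low counts. Depth limits the values of the family. Every member but miR-151-5p had a median of at most 30.5 counts in each group, and miR-151-5p had a median of 33 in KO.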
